A study of Rattus norvegicus with 6 samples.

Results

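Igf1r, Igfbp4, Foxo1, Erbb2 and Fgf18 are 5 genes of insulin, insulin-like growth factor (IGF), ErbB and fibroblast growth factor (FGF) signaling. They were picked by symbol from the 3221 entries of the deposited expression table, in which each has 1 entry. The table itself was selected on the comparison of DCM with NF serum (entries with a q under 0.10), and the 5 genes were chosen by their measured values in the same comparison, so their differences are given as a description and without a test. The libraries come from neonatal rat ventricular myocytes (NRVMs), heart muscle cells isolated enzymatically from the ventricles of Sprague Dawley rats at postnatal day 2. The cells were cultured with 1% human serum for 72 hours per the labels, either from children with dilated cardiomyopathy (DCM serum, 3 libraries) or from children with nonfailing hearts (NF serum, 3 libraries). The methods of the study give another serum concentration and a range of times. Each library pools 2 RNA preparations. The study used 3 NRVM preparations, and the headers of its fold changes pair each DCM library with 1 NF library. Each pair is taken here as 1 preparation, called A, B or C, since the sample titles name none. The labels give the same sera for the NF libraries of preparations B and C, and whether these came from separate cultures is not stated in the sources used here. The comparison asks how gene expression of NRVMs differs between the sera.

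In this pathway, insulin and IGFs bind 2 related receptor tyrosine kinases, the insulin receptor and the IGF1 receptor, which signal through IRS adaptors, PI3 kinase and Akt. Akt phosphorylates FoxO transcription factors and thereby keeps them out of the nucleus, so that FoxO target genes are active when insulin and IGF signaling is low. ErbB2 has no ligand of its own and pairs with other ErbB receptors. With ErbB4 it forms the neuregulin receptor of cardiomyocytes, and mice that lack it in heart muscle develop a dilated heart.

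Expression was measured as FPKM, in which fragments are normalized to exon length and to the mapped reads of a library. The paper gives an average of mapped reads per sample, but the read count behind each value is unknown. Every entry of the table was higher (252 entries) or lower (2969 entries) with DCM serum in all 3 preparations, so agreement in direction comes with the selection. The paper reports far fewer genes at the same q threshold, more of them higher than lower. Why the table differs is not stated in the sources used here. Over the table, the log2 ratio of DCM over NF serum had a median of -0.17 in A, -0.40 in B and -0.25 in C. These medians are of entries selected as different, most of them lower, and are no baseline of unchanged genes. Values given relative to them are shifted upward in every preparation. Most cell type markers are not in the table. It holds 1 of 15 listed cardiomyocyte markers, Myl2, at 6628 to 11270 FPKM with DCM serum and 9235 to 11360 FPKM with NF serum. It also holds 2 of 11 fibroblast, 2 of 6 smooth muscle, 1 of 7 endothelial and 0 of 6 macrophage markers. In such bulk RNA, fewer cells of a type and less RNA per cell cannot be told apart.

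Igf1r (ENSRNOG00000014187) encodes the IGF1 receptor. It is shown with its promoter and that of Igfbp4, since both genes act on the same ligands and differed in opposite directions. The windows are RefSeq's for build GRCr8, from 250 bases before to 50 bases after a transcript start, and both lie on the plus strand. Capitals mark a GC box (GGGCGG), an E-box (CACGTG) or a TATA box (TATAAA), each searched on both strands.
Igf1r, chr1:130959747-130960046: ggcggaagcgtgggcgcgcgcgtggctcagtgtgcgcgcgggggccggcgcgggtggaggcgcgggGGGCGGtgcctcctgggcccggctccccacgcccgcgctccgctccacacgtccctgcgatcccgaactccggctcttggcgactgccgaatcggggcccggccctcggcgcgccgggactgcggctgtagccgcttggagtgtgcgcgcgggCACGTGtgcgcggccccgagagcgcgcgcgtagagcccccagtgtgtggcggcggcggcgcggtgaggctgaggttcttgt
Igfbp4, chr10:84491221-84491520: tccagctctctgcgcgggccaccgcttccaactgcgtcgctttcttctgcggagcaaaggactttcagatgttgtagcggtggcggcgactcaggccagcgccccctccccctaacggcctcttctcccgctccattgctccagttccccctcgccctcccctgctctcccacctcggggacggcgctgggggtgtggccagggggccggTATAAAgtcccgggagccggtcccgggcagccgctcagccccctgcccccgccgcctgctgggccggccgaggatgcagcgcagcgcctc

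The promoters of both genes are rich in G and C, but they hold different short motifs. The Igf1r window has 78.0% G and C, with a GC box starting at base -184 and an E-box at -31 from the start. The Igfbp4 window has 71.0% G and C and a TATA box starting at -40, and neither of the other 2 motifs. Among 33469 rat promoter windows of 300 bases, the median content of G and C was 51.7%, and 33.1% held a GC box, 6.42% an E-box and 14.2% a TATA box. All 5 genes matched a RefSeq window, and the other 3 had 71.3% (Erbb2), 75.0% (Foxo1) and 81.3% (Fgf18) G and C. The FoxO site TGTTTAC (3.78% of windows) and the glucocorticoid receptor half-site AGAACA (20.7% of windows) were searched likewise and matched none of the 5 windows. No match says only that these letters are not in these windows.

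Igf1r was slightly higher with DCM serum, by nearly the same factor of FPKM in each preparation. It was at 8.67, 4.47 and 4.31 FPKM with DCM serum in preparations A, B and C, and at 7.38, 3.83 and 3.68 FPKM with NF serum. Preparation A stood 2.01-fold above preparation C under either serum, and the DCM and NF ranges overlapped. Within preparations, the level with DCM serum was 17.5%, 16.6% and 17.3% above that with NF serum, a mean log2 ratio of 0.23 ± 0.0058 (SD, n = 3 preparations). Only 1 of the 252 higher entries had a smaller SD of its 3 ratios, and 180 had a larger mean ratio. Entries with small ratios pass the q threshold only where these are close, and Igf1r itself was chosen by its values. The closeness comes in part with this selection, and nothing is read from the ranks. The close ratios belong to FPKM as deposited: relative to the table median of each preparation, Igf1r lay higher by a log2 of 0.40 in A, 0.62 in B and 0.48 in C. Igf1r is the only one of 4 listed IGF and insulin receptors with an entry in the table.

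Igfbp4 (ENSRNOG00000010635) encodes a secreted protein that binds IGFs and limits their access to the receptor until proteases cleave it. Its level was 8.64, 7.40 and 18.3 FPKM with DCM serum and 16.0, 15.2 and 24.2 FPKM with NF serum in A, B and C. Preparation C was the highest under both sera, and its DCM library lay above the NF libraries of A and B, so the ranges overlapped. With DCM serum it was at 0.539, 0.487 and 0.760 of its level with NF serum, a mean log2 ratio of -0.78 ± 0.34 (SD, n = 3). In preparation C the reduction was 24.0%, a log2 ratio of -0.40 against a table median of -0.25. Among the lower entries of the table, 222 of 2969 had a larger mean change and 2338 a smaller SD. The ratio of Igfbp4 to Igf1r FPKM within a library was 0.997, 1.66 and 4.25 with DCM serum and 2.17, 3.97 and 6.57 with NF serum. It was lower with DCM serum in each preparation, while the groups overlapped.

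Fibroblast markers varied between the libraries in a similar order. The 2 listed ones with an entry, Lum and Postn, summed to 21.5, 10.3 and 38.0 FPKM with DCM serum and to 22.5, 13.8 and 64.0 FPKM with NF serum in A, B and C. Neither was at 0 in any library, and preparation C was the highest under both sera. The log2 ratios of DCM over NF serum had another order over the preparations. In A, B and C they were -0.05, -0.57 and -0.79 for Lum and -0.07, -0.40 and -0.74 for Postn. Those of Igfbp4 were -0.89, -1.04 and -0.40. The part of fibroblasts in the Igfbp4 values was not tested.

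Foxo1 (ENSRNOG00000013397), which encodes a FoxO factor that insulin signaling restrains, was higher with DCM serum by a similar factor in each preparation. Its level was 5.34, 7.68 and 4.86 FPKM with DCM serum and 3.85, 5.64 and 3.63 FPKM with NF serum in A, B and C. Preparation B was the highest under both sera, its NF library lay above the DCM libraries of A and C, and the ranges overlapped. The level with DCM serum was 38.6%, 36.2% and 33.8% above that with NF serum, a mean log2 ratio of 0.45 ± 0.025 (SD, n = 3). Among the 252 higher entries, 47 had a smaller SD and 96 a larger mean ratio. Here too the closeness comes in part with the selection of the table and of the gene. Relative to the table median of its preparation, Foxo1 lay higher by a log2 of 0.64 in A, 0.85 in B and 0.67 in C.

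The single listed endothelial marker with an entry, Pecam1, was also higher with DCM serum. It had 2.98, 2.34 and 3.22 FPKM with DCM serum and 2.06, 1.51 and 2.19 FPKM with NF serum in A, B and C, a mean log2 ratio of 0.57 ± 0.053, and it was not at 0 in any library. All its DCM libraries lay above all its NF libraries, and its log2 ratios were 0.53, 0.63 and 0.55 in A, B and C. Its highest preparation was C under both sera, that of Igf1r was A and that of Foxo1 was B. The part of endothelial cells in the Igf1r and Foxo1 values was not tested.

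Erbb2 (ENSRNOG00000006450) was the least abundant of the 5 genes, and lower with DCM serum. It was at 1.54, 1.59 and 1.69 FPKM with DCM serum and at 2.24, 2.61 and 1.91 FPKM with NF serum in A, B and C. All DCM libraries lay below all NF libraries, and those with DCM serum were close to each other (1.61 ± 0.0717 FPKM, against 2.25 ± 0.349 FPKM with NF serum, SD, n = 3 each). The reductions were 31.0%, 38.8% and 11.6%, a mean log2 ratio of -0.47 ± 0.27. Among the 2969 lower entries, 2028 had a smaller SD. Relative to the table median of its preparation, Erbb2 lay lower in A (-0.37) and B (-0.31) and slightly higher in C (0.07). The 2 smooth muscle markers with an entry, Tagln and Smtn, summed to 75.0 to 122 FPKM with DCM serum and to 119 to 152 FPKM with NF serum, with mean log2 ratios of -0.38 ± 0.27 and -0.41 ± 0.28, and their part in the lower genes was not tested.

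Fgf18 (ENSRNOG00000048389) encodes a secreted growth factor best known from bone, cartilage and lung development. Its level was 9.02, 9.09 and 11.3 FPKM with DCM serum and 12.0, 22.7 and 19.2 FPKM with NF serum in A, B and C. No DCM library reached the level of any NF library, and the NF library of preparation A was the one nearest to them. With DCM serum it was at 0.749, 0.401 and 0.590 of its level with NF serum, a mean log2 ratio of -0.83 ± 0.45 (SD, n = 3), the widest spread of the 5 genes. Without preparation B it was -0.59. Among the 2969 lower entries, 2702 had a smaller SD.

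**Figure D1:**
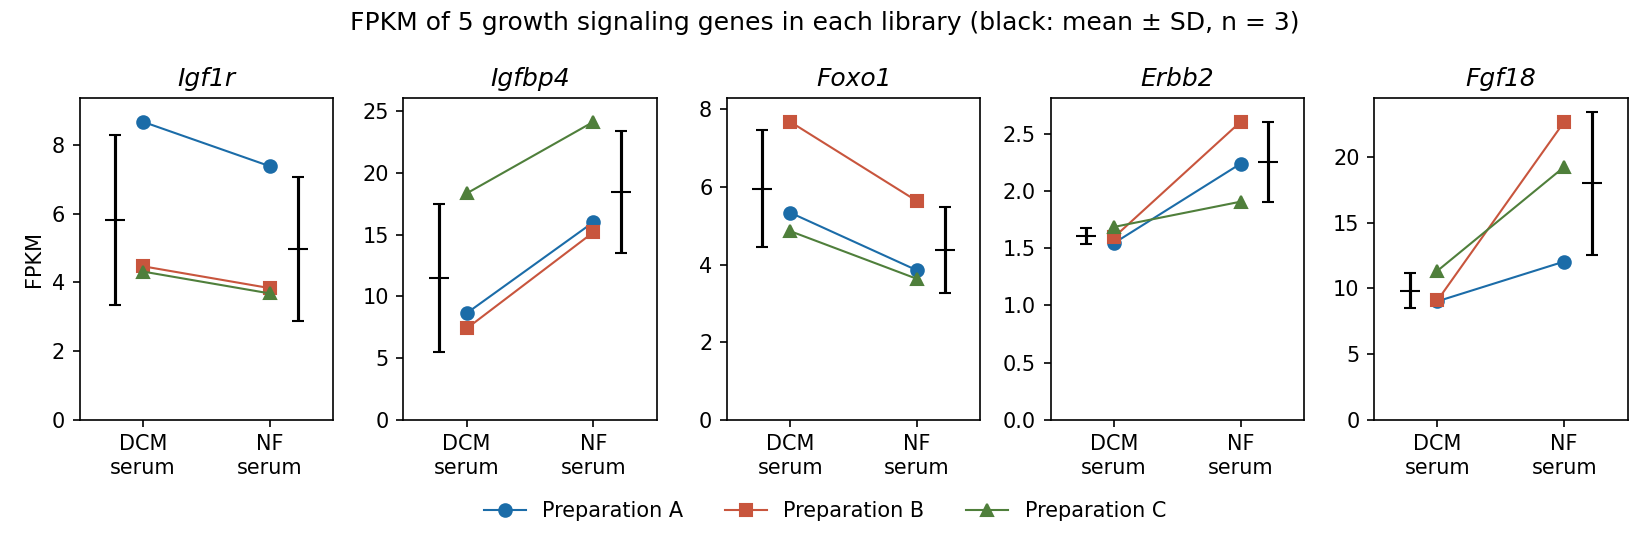
FPKM (linear axes from 0) of Igf1r, Igfbp4, Foxo1, Erbb2 and Fgf18 in 3 DCM serum and 3 NF serum libraries of NRVMs. Lines join both libraries of a preparation, black marks give the mean ± SD (n = 3), and the groups are apart only for Erbb2 and Fgf18, while for Igf1r preparation A stands apart at 8.67 FPKM (DCM serum) and 7.38 FPKM (NF serum).

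Of the 5 genes, 2 had DCM libraries that all lay below the NF libraries (Erbb2 and Fgf18), and 0 had DCM libraries that all lay above them. Over the whole table, 25.7% of entries were apart in the lower direction and 2.73% in the higher direction. These shares come from the comparison that selected the genes, and nothing is read from them. When each library was divided by its table median, Erbb2 and Fgf18 also overlapped between the sera. With the ratios centred on the table median of each preparation, the mean log2 ratio was 0.50 for Igf1r, 0.72 for Foxo1, -0.20 for Erbb2, -0.50 for Igfbp4 and -0.56 for Fgf18. That median is of selected, mostly lower entries, so centring on it moved all 5 ratios upward.

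**Figure D2:**
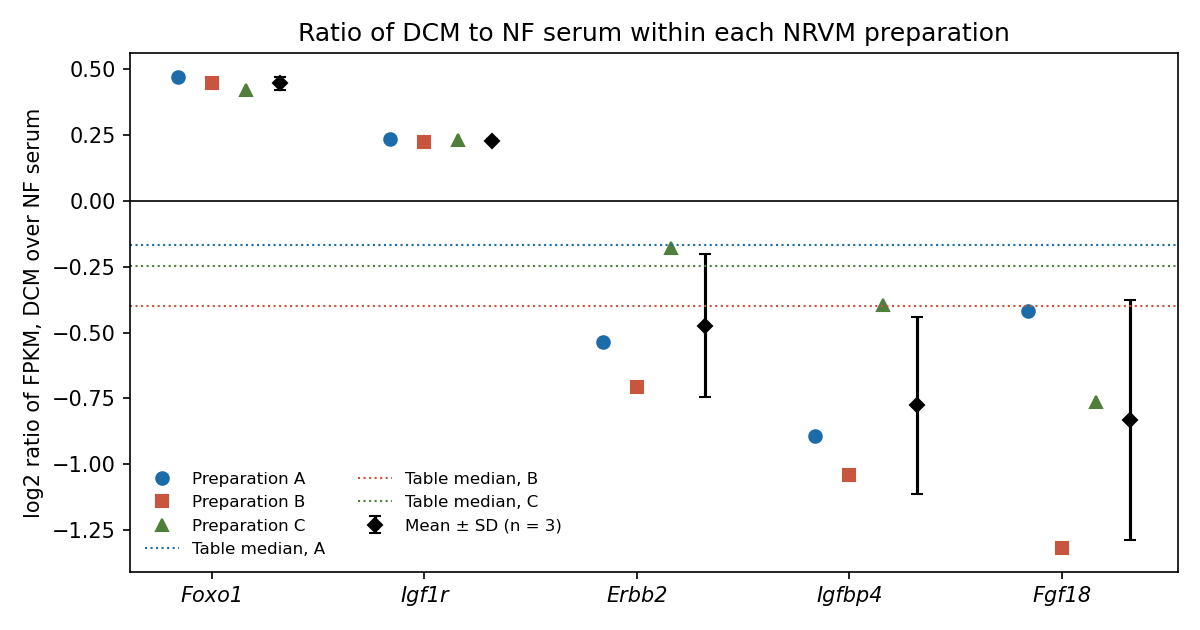
Log2 ratio of FPKM, DCM over NF serum, for the 5 genes in preparations A, B and C, with the mean ± SD (black diamonds, n = 3) and the table median of each preparation (dotted lines). Foxo1 (0.45 ± 0.025) and Igf1r (0.23 ± 0.0058) have nearly equal FPKM ratios in the 3 preparations, unlike their distances to the dotted lines, while Erbb2, Igfbp4 and Fgf18 spread over SDs of 0.27 to 0.45.

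The 5 genes kept much the same order of FPKM under both sera. With DCM serum the mean FPKM was 11.5 for Igfbp4, 9.82 for Fgf18, 5.96 for Foxo1, 5.82 for Igf1r and 1.61 for Erbb2. With NF serum it was 18.5 for Igfbp4, 18.0 for Fgf18, 4.96 for Igf1r, 4.37 for Foxo1 and 2.25 for Erbb2. Igfbp4 and Fgf18 overlapped over the libraries of either group, as did Foxo1 and Igf1r. The lowest library of Fgf18 lay above the highest of Foxo1 and Igf1r in either group, and Erbb2 lay below all other genes.

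The genes most like each of the 5 over the 6 libraries, by the Pearson correlation of log2 FPKM, differed from gene to gene. Only entries with a gene symbol were ranked, and provisional or clone-like names were left out. The points share their preparations and the selection of the table, and the correlations are a description. For Igf1r they were S100a10 (r = 0.999), a calcium-binding partner of annexin A2, the RNA methyltransferase Nsun2 (r = 0.997) and Eif4enif1 (r = 0.996), which carries eIF4E. S100a10 had 262, 64.7 and 60.8 FPKM with DCM serum and 172, 46.7 and 45.9 FPKM with NF serum in A, B and C, with the same high preparation A. For Igfbp4 they were Pdlim2 (r = 0.992), Ing4 (r = 0.990) and the protease gene Capn1 (r = 0.989). For Foxo1 they were Cecr5 (r = 0.994), Ikbkap (r = 0.973) and the centrosomal Cep63 (r = 0.954). Over all entries of the table, whatever their name, only 4 had a correlation above 0.95 with Foxo1, against 117 with Fgf18. Those most like Fgf18 were Prss35 (r = 0.997), FAM120C (r = 0.996) and the RNA helicase gene Ddx5 (r = 0.993), and those most like Erbb2 were Rassf9 (r = 0.990), Auts2 (r = 0.985) and Commd1 (r = 0.985). Among the 5 genes themselves, r was highest for Erbb2 and Fgf18 (0.796) and lowest for Igfbp4 and Foxo1 (-0.824), and for Igf1r and Foxo1, both higher with DCM serum, it was -0.088.

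The rest of the pathway was read from a list of 198 genes in 12 roles, of which 45 are in the table, the 5 genes included. The other 40 were compared with limma on log2(FPKM + 1), with preparation as a block and a Benjamini-Hochberg adjusted p under 0.10 over the whole table. In this fit 4 were called higher and 26 lower, and 10 did not pass. This is 10.0% higher and 65.0% lower, beside 6.24% and 61.6% of the whole table. The median log2 ratio of the 40 was -0.32, against -0.29 for the table. Relative to the table median of each preparation, 4 were called higher and 3 lower, beside 252 higher and 344 lower of all 3221 entries. With A left out 12 were called lower, with B left out 6 and with C left out 7, beside 1164, 461 and 523 of all entries. The 4 called higher were Fbxo32, Enpp1, Eif4ebp2 and Errfi1. Without the block, limma called none of the 40, with 2 higher and 6 lower at an unadjusted p under 0.05. The fit uses the same comparison that selected the table, so these counts describe the list and are no independent support.

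Fbxo32, the muscle ubiquitin ligase atrogin-1, is a textbook FoxO target and the only one of 24 listed targets in the table. It had 18.8, 32.9 and 21.9 FPKM with DCM serum and 13.6, 23.8 and 16.7 FPKM with NF serum in A, B and C. Its mean log2 ratio of 0.44 ± 0.043 lay beside the 0.45 ± 0.025 of Foxo1, and preparation B was again the highest under both sera (r = 0.922 over 6 libraries). This pair was picked by name from the list, and both entries passed the same selection. FoxO activity was not tested. Enpp1, a membrane enzyme reported to inhibit the insulin receptor, had 8.66, 5.08 and 4.87 FPKM with DCM serum and 5.71, 3.85 and 3.63 FPKM with NF serum. Its mean log2 ratio was 0.47 ± 0.11, with preparation A the highest, as for Igf1r.

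Errfi1, which encodes a feedback inhibitor that binds ErbB receptors, had the largest change of the list. It was at 15.0, 10.9 and 12.4 FPKM with DCM serum and at 7.31, 3.82 and 4.44 FPKM with NF serum, a mean log2 ratio of 1.35 ± 0.27. Eif4ebp2, a repressor of translation that mTOR inactivates, was at 37.0, 36.2 and 27.9 FPKM with DCM serum and at 22.8, 23.7 and 20.7 FPKM with NF serum, a mean log2 ratio of 0.58 ± 0.14. For Errfi1 and Eif4ebp2 all DCM libraries lay above all NF libraries, as for 2 of the 40 genes (5.0%, beside 2.73% of the table), and 10 of the 40 were apart in the lower direction (25.0%, beside 25.7%).

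**Figure D3:**
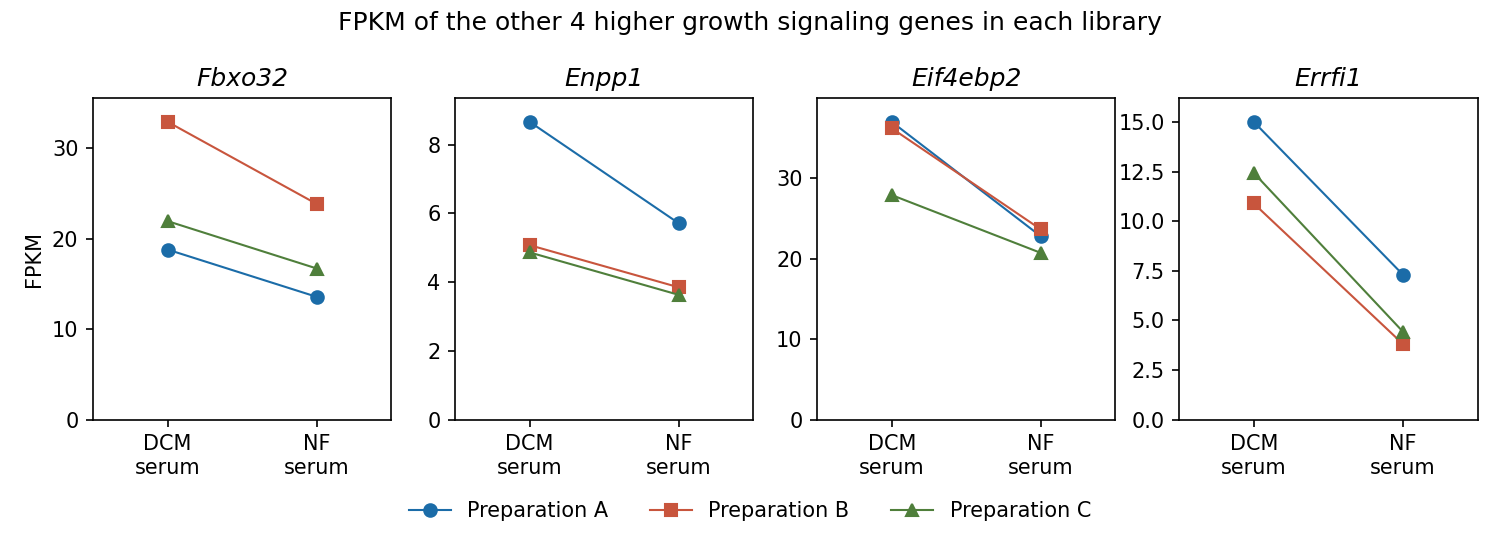
FPKM (linear axes from 0) of Fbxo32, Enpp1, Eif4ebp2 and Errfi1 in 3 DCM serum and 3 NF serum libraries, with lines that join both libraries of a preparation. Each line is higher at its DCM end, and for Errfi1 the lowest DCM library (10.9 FPKM) lies above the highest NF library (7.31 FPKM).

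The counts by role that follow stand beside 61.6% of the whole table called lower and 6.24% called higher, and with centred ratios 3 of the 40 genes were called lower in all roles together, so that nothing particular to a role is read from them. Beside Igfbp4, the table holds 2 listed genes that act on IGF availability, and both were called lower. They were Stc1, an inhibitor of the protease that cleaves IGFBP4 (-0.54 ± 0.50), and the serine protease gene Htra1 (-0.47 ± 0.51). Both SDs are wide, since Stc1 had its largest log2 ratio in A (-1.11) and Htra1 in B (-1.05). Of the ErbB ligands and sheddases, 3 of 13 have an entry, and each was called lower. Areg, the gene of amphiregulin, had -0.75 ± 0.14, Ereg, that of epiregulin, had -0.80 ± 0.45, and the sheddase gene Adam10 had -0.53 ± 0.43. Levels were low for Areg (0.580 to 5.11 FPKM over the 6 libraries) and Ereg (0.366 to 1.22 FPKM). Erbb4, the partner of Erbb2 in neuregulin signaling, was called lower at -0.44 ± 0.32, with 1.40, 2.72 and 2.34 FPKM with DCM serum and 2.13, 4.27 and 2.47 FPKM with NF serum. As for Erbb2, its smallest difference was in preparation C.

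Of 22 listed FGF genes, 3 beside Fgf18 have an entry and all were called lower. They were Fgf12 (-0.50 ± 0.35) and Fgf13 (-0.36 ± 0.21), whose products stay in the cell and bind sodium channels, and the heart growth factor gene Fgf16 (-0.29 ± 0.13). Of the FGF receptor genes, Fgfr1 was called lower (-0.32 ± 0.30), while Fgfr3 (-0.25 ± 0.27) and Fgfrl1 (-0.19 ± 0.16), which encodes a receptor without a kinase domain, did not pass. Of 4 adaptors, Grb2 (-0.27 ± 0.19), Frs3 (-0.53 ± 0.23) and Grb14 (-0.52 ± 0.29), which inhibits the insulin receptor, were called lower, and Irs1 (-0.20 ± 0.15) did not pass.

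Downstream, 6 of 8 PI3 kinase, Akt and mTOR genes were called lower and 1, Eif4ebp2, higher. The largest lower ratios were those of Tbc1d4, an Akt substrate that controls glucose transporter traffic (-0.77 ± 0.36), the PI3 kinase subunit gene Pik3r3 (-0.59 ± 0.39) and the mTOR complex gene Mlst8 (-0.33 ± 0.12), while Pik3r2 (-0.36 ± 0.46) did not pass. Of the Ras and MAP kinase genes, Rasa1, which switches Ras off (-0.53 ± 0.20), and Rps6ka1 (-0.48 ± 0.40) were called lower, while Rps6ka3 (-0.32 ± 0.34) did not pass. Of 9 feedback and receptor inhibitors, 2 were called higher (Errfi1 and Enpp1) and 5 lower. The lowest ratios were those of the receptor phosphatase gene Ptprf (-0.94 ± 0.56), followed by Phlpp2, a phosphatase of Akt (-0.53 ± 0.26), Socs2 (-0.44 ± 0.34) and Rnf41 (-0.30 ± 0.30).

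**Figure D4:**
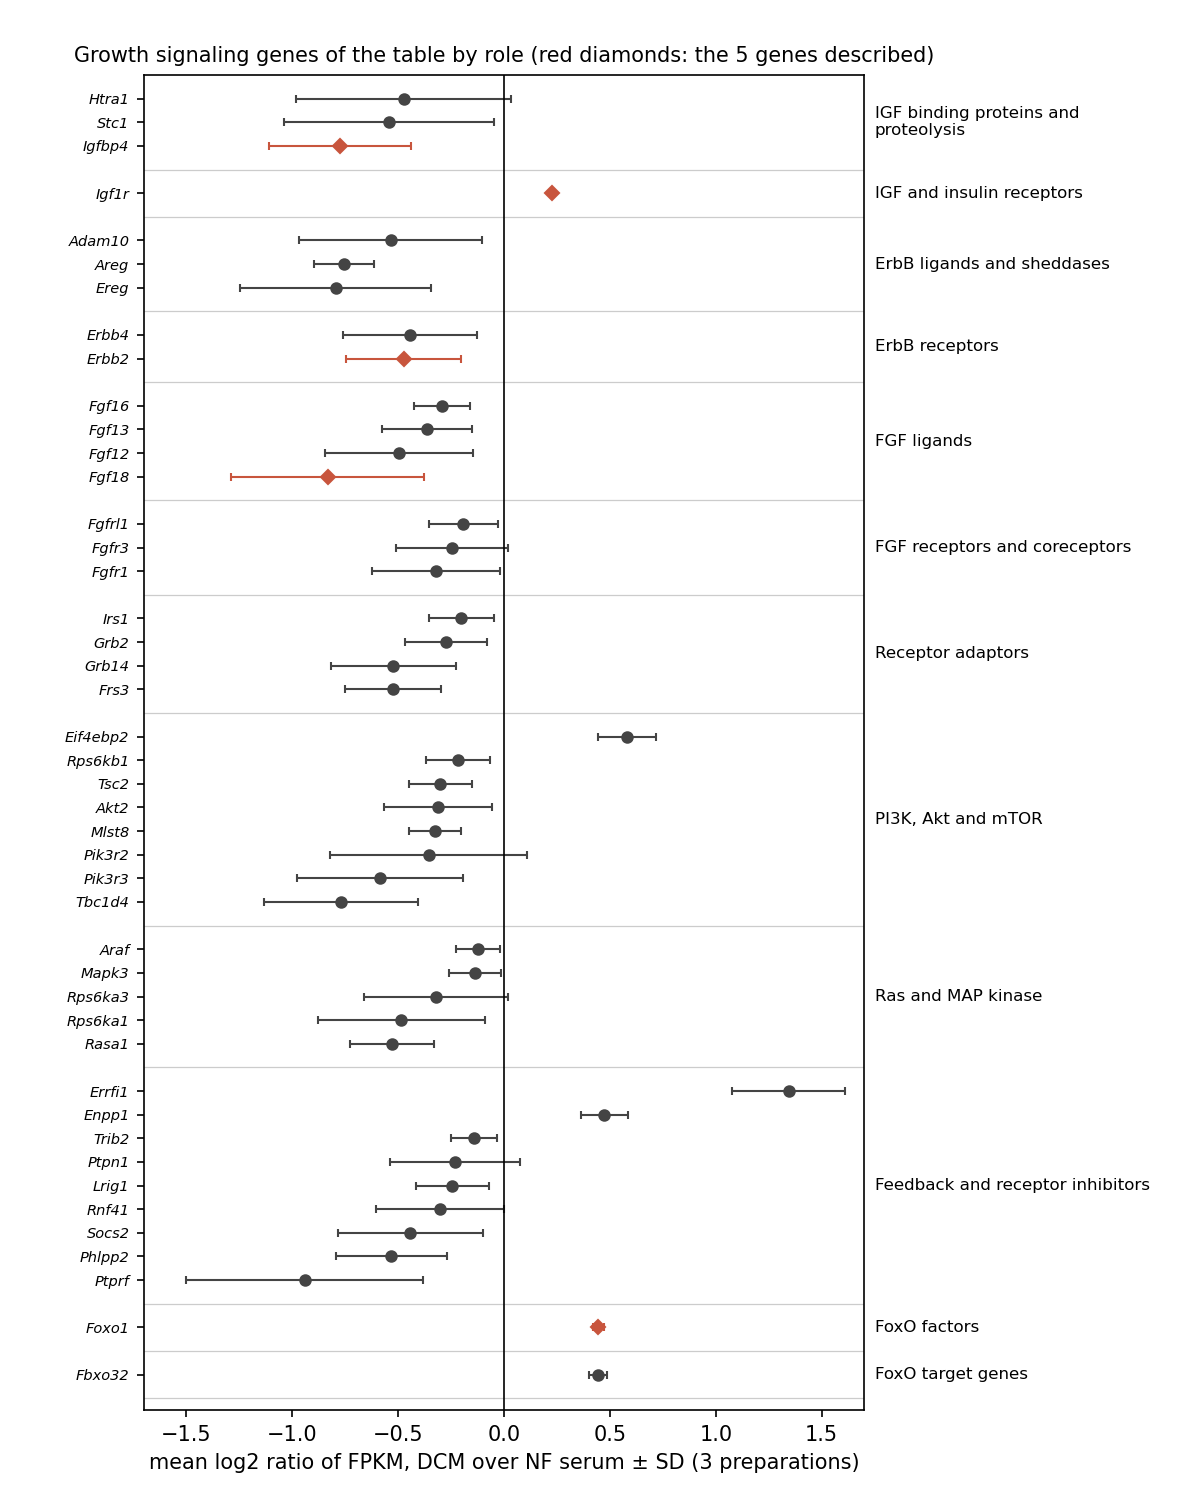
Mean log2 ratio of FPKM, DCM over NF serum, with SD over 3 preparations (bars), for 44 of the 45 growth signaling genes of the table by role. The 5 genes described are red diamonds, 6 of the 44 lie above 0 (Igf1r, Foxo1, Fbxo32, Enpp1, Eif4ebp2 and Errfi1) and 38 below, and Errfi1 is farthest from 0 at 1.35 ± 0.27.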

How the data were processed

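RNA of NRVMs was sequenced in 3 DCM serum and 3 NF serum libraries. Per the labels and the study's methods, the authors aligned reads to Rnor_5.0 with gsnap, computed FPKM with Cufflinks and removed transcripts of low variance. The deposited table also holds signed fold change scores, a mean fold change ratio, p-values and q-values of the authors, which were not used, except that all q-values were checked to lie under 0.10 and that the headers of the fold change columns name the NF library paired with each DCM library. No FPKM value was 0. Ratios were taken within preparations without a pseudocount. The only test was limma 3.58.1 in R 4.3.3 on log2(FPKM + 1), two-sided, with preparation as a block, since the study normalizes to the NF group of each preparation, and it was tested on simulated data. Within pairs, library deviations from the group mean correlated at 0.873, 0.743 and 0.741 (other pairs -0.706 to 0.235). The entries were selected on their ratios within these pairs, so the correlations are no independent support for the block. The pairs are taken as the preparations, and whether libraries of a group came from separate cultures is not otherwise stated. The 5 genes and the lists were chosen with earlier results of these data known. Named genes were the 5 genes and up to 4 per role and direction with the largest mean log2 ratio. For each of the 5, the 3 entries with a gene symbol and the most similar pattern were also named. Symbols were matched with older names. A single listed gene counts in the totals but is not reported here by name. Promoters came from RefSeq (GRCr8). Alternatives covered the block, pseudocounts, an FPKM minimum, the threshold, centring and omission of each preparation.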

Additional observations from a re-analysis of the deposited data

How the results depend on the processing

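Each of the 5 genes had the same direction under every alternative run. By the selection, every entry has 1 direction in all 3 preparations, so only centring could have changed it. With a pseudocount of 1 the mean log2 ratio was 0.19 for Igf1r, 0.37 for Foxo1 and -0.31 for Erbb2. Centred on the table median of each preparation it was 0.50 for Igf1r, 0.72 for Foxo1 and -0.20 for Erbb2. The table median is that of selected, mostly lower entries, so the centred values depend on the selection too. Omission of 1 preparation gave 0.23 for Igf1r in each case, 0.43 to 0.46 for Foxo1, -0.96 to -0.64 for Igfbp4, -0.62 to -0.36 for Erbb2 and -1.04 to -0.59 for Fgf18. Values under other alternatives (a pseudocount of 0.1, the ratio of group means) moved by less than 1 SD. The cause of these changes was not tested.

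Of the 40 other genes of the list, the fit without the replicate block (unpaired) called 0 higher and 0 lower, a threshold of 0.05 called 8 lower, and centring called 3 lower. Omission of preparation A, B and C left 12, 6 and 7 lower calls. Over the whole table the unpaired fit called 3 higher and 1 lower, with 533 entries at an unadjusted p under 0.05. A threshold of 0.05 called 149 higher and 715 lower, and centring 252 higher and 344 lower. Omission of A, B and C left 140, 131 and 97 higher and 1164, 461 and 523 lower calls.

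Groups that do not overlap depend on the scaling. Divided by the library's table median, 223 entries of the table were apart in the higher and 114 in the lower direction (88 and 827 as deposited). Of the 40 genes 1 was then apart in the lower direction, and of the 5 genes 0. With 1 preparation omitted, fewer libraries can overlap. Then 116 to 190 entries of the table were apart in the higher direction, and 2265, 1246 and 1483 without A, B and C in the lower direction, as were 26, 14 and 23 of the 40 genes. Of the 5 genes, 1 was apart in the higher direction without A (Igf1r) or B (Foxo1), and 0 without C. In the lower direction 2 of them were apart without A, 2 without B and 3 without C.

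The FPKM table holds no read counts, so the precision of a single value is unknown, most of all at low levels. Of the 5 genes this concerns Erbb2, below 3 FPKM. Among the other named genes, Ereg reached down to 0.366 FPKM, Areg to 0.580, Rassf9 to 0.601, Rps6ka1 to 0.686 and Prss35 to 0.745. The table holds only entries selected on this comparison, and genes outside it were not analysed here.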
